A study of Mus musculus with 6 samples.

Results

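Chemokines are small secreted proteins that steer migrating cells, and their receptors are G protein-coupled receptors on the surface of those cells. They were taken here as the genes whose symbol in the probe annotation follows the family nomenclature (Ccl, Ccr, Cxcl, Cxcr, Xcl1, Xcr1, Cx3cl1, Cx3cr1, and the atypical receptors Ackr1 to Ackr4). The rule found 56 genes among 19937 measured, of which 34 encode ligands and 22 encode receptors. Each gene was read by its brightest probe set that carries a single symbol, and genes whose probe sets carry several symbols were not analysed here.

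Expression was measured on 6 single-colour Affymetrix arrays, 3 labelled EVI1 and 3 labelled EGFP. All held RNA of C57BL6 mouse hematopoietic progenitors without lineage markers (Lin-) and with the Rosa26rtTA allele, which places a doxycycline-dependent transactivator in a ubiquitously active locus. Both groups were cultured without serum in stem cell factor at 50 ng/ml, interleukin 3 at 20 ng/ml, Flt3 ligand at 50 ng/ml and interleukin 11 at 50 ng/ml. Both were transduced with a lentiviral vector 24 h after isolation and given doxycycline at 1 µg/ml 24 h after the vector. The vector of the EVI1 group carried Evi1 with EGFP behind an internal ribosome entry site, and that of the EGFP group carried EGFP alone, in each case under a tetracycline-responsive promoter. EGFP-positive cells were sorted 20 h after doxycycline in the design text and RNA was prepared after 24 h of doxycycline in the treatment protocol. Whether a replicate was its own animal or culture is not stated, so p-values measure the spread between these arrays only.

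As background, a chemokine is named by the spacing of its first cysteines. Many CC chemokines attract monocytes, dendritic cells and T cells, whereas CXC chemokines include the neutrophil attractants that act on Cxcr2 and the interferon-inducible ligands of Cxcr3. In bone marrow, Cxcl12 from stromal cells retains progenitors and neutrophils through Cxcr4, Cxcr2 favours the release of neutrophils, and Ccr2 is needed for monocytes to leave. Atypical receptors bind chemokines without activating G proteins and remove or transport them.

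The falls in the arrays labelled EVI1 lay among CC ligands and CC receptors, and the rises were 3 CXC ligands and the receptors Ccr9 and Ackr1. Of the 56 genes, 5 rose, 9 fell and 42 did not pass the test (limma, Benjamini-Hochberg adjusted p under 0.05 over all genes). This is 25% of the family, beside 18.2% of all genes tested. The rises made up 8.93% of the family, beside 9.06% of all genes, and the falls 16.1%, beside 9.18%. Among 34 ligands 3 rose and 6 fell (26.5% changed), and among 22 receptors 2 rose and 3 fell (22.7% changed). With the replicate number as a block, 10 ligands (29.4%) and 8 receptors (36.4%) passed, beside 21.9% of all genes, so the order of the shares turned. The median log2 fold change was -0.02 for ligands, -0.01 for receptors and 0.01 for all genes. Whether ligands differ from receptors was not tested. By symbol, none of 19 Ccl genes rose and 6 fell, with a median of -0.20, while 3 of 13 Cxcl genes rose and none fell, with a median of 0.17. The CXC ligands Pf4 and Ppbp lie outside the symbol rule and are given with the related genes. Pf4 fell (log2 -1.41 ± 0.22 SE) and Ppbp rose (1.37 ± 0.21), so the absence of falls holds for the Cxcl symbols only. Without EVI1 replicate 3 only 1 rise and 4 falls passed (8.93% of the family, beside 11.5% of all genes in that fit), while the rises were 3 without EGFP replicate 1 and likewise without EGFP replicate 3.

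**Figure D1:**
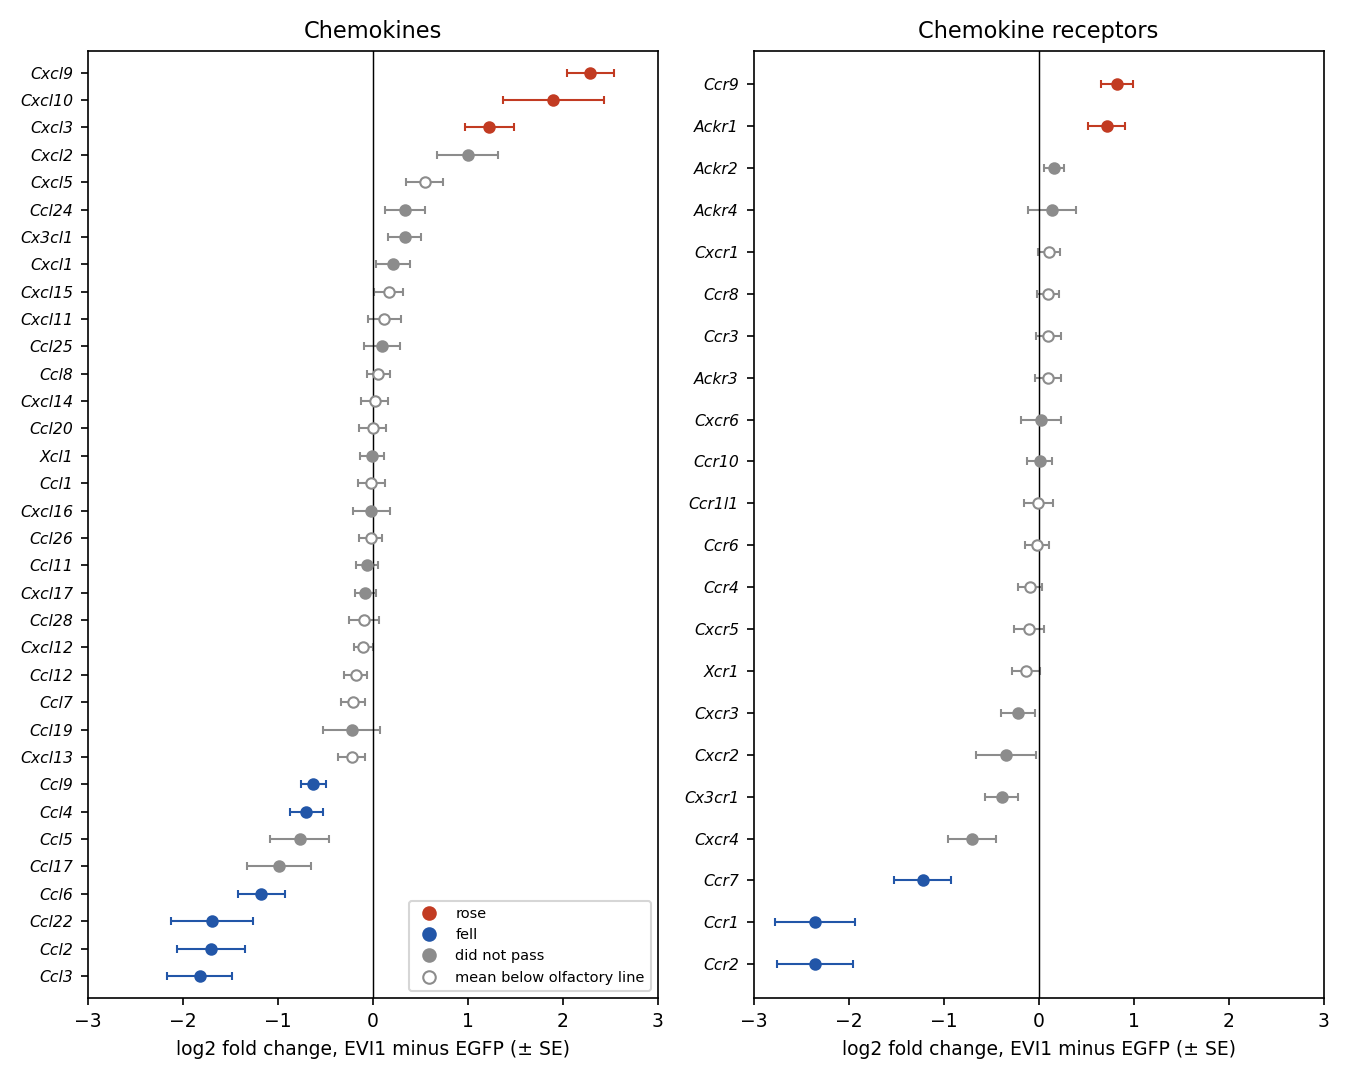
Log2 fold change (EVI1 minus EGFP) with its standard error for all 34 ligands and 22 receptors; red genes rose, blue fell, grey did not pass, and open circles have a mean at or below the olfactory line defined in the text. The risen ligands carry Cxcl symbols and the fallen ones Ccl symbols, and the 3 fallen receptors are Ccr7, Ccr1 and Ccr2.

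Signal and labels were checked on the same arrays. Array medians lay between 7.24 and 7.31 on the log2 scale, and arrays correlated across genes at 0.976 to 0.990 within groups and 0.942 to 0.959 between them. An olfactory line was drawn at the 95th percentile of the means of 1027 olfactory receptor genes, as a rough guide to the signal of silent genes because no detection calls were used; it lay at 6.97 over all arrays. Of the family 34 genes lay above it and 22 at or below it (13 ligands and 9 receptors), and none of those 22 passed the test, with log2 differences from -0.22 to 0.55. Mecom, the gene that encodes EVI1, had no higher level there than in EGFP (6.39, 7.53 and 6.86 in EGFP; 6.29, 6.18 and 6.49 in EVI1), and whether its probes read the vector is not known here. All 9 progenitor markers measured lay above the olfactory line; 6 of them fell and 1 rose, with array means of 10.26 to 10.35 in EGFP and 9.48 to 9.53 in EVI1. In such bulk samples fewer cells of a type and less RNA per cell cannot be told apart.

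**Figure D2:**
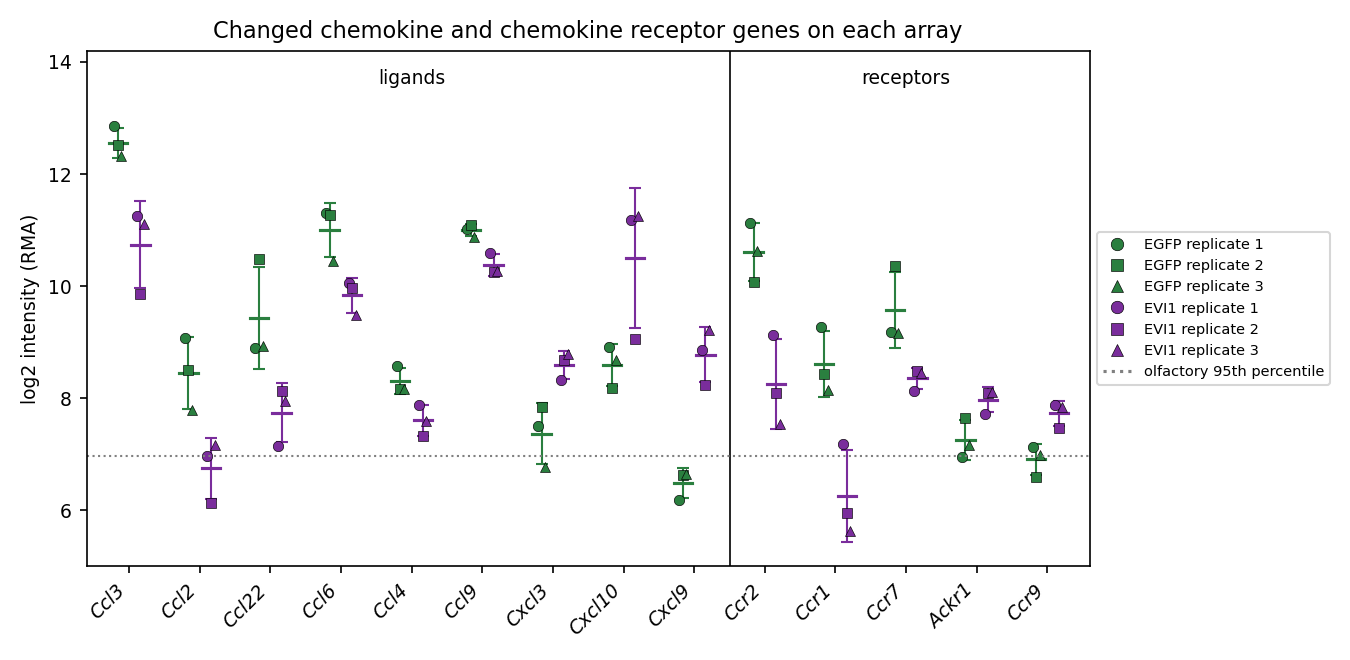
RMA log2 intensity of the 14 changed genes on each of the 6 arrays, ligands left and receptors right; bars give the mean ± SD of 3 arrays and the dotted line the olfactory 95th percentile of 6.97. For each gene shown the EVI1 arrays lie on one side of the EGFP arrays, and Cxcl10 has 1 EVI1 array close to its EGFP arrays.

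Of the ligands of Ccr1 (Ccl3, Ccl4, Ccl5, Ccl6 and Ccl9) 4 fell and none rose, and all 5 had lower values on every EVI1 array than on any EGFP array. Ccl3, which attracts monocytes and also restrains the cycling of blood progenitors, read 12.85, 12.51 and 12.32 on the EGFP arrays and 11.26, 9.85 and 11.11 on the EVI1 arrays. The groups did not overlap, and EVI1 replicate 2 was lowest. Its fall was 3.53-fold (log2 -1.82 ± 0.34 SE, n = 3 arrays per group, limma adjusted p = 0.00781). It passed without each single array, at adjusted p from 0.00343 to 0.0264.

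Ccl6, a myeloid chemokine found in rodents, read 11.31, 11.27 and 10.44 in EGFP and 10.05, 9.96 and 9.49 in EVI1. Replicate 3 was the lowest array of each group. The fall was 2.25-fold (log2 -1.17 ± 0.25 SE, limma adjusted p = 0.0134). Ccl9, likewise a rodent chemokine that binds Ccr1, read 11.02, 11.10 and 10.88 in EGFP and 10.59, 10.26 and 10.27 in EVI1. The arrays of each group lay close together, so that a difference of only 1.54-fold passed (log2 -0.62 ± 0.13 SE, limma adjusted p = 0.0118). Without EVI1 replicate 3 neither passed, at limma adjusted p = 0.0640 for Ccl6 and 0.0549 for Ccl9.

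Ccl4, the product of the gene beside Ccl3, read 8.57, 8.17 and 8.17 in EGFP and 7.88, 7.32 and 7.60 in EVI1. Its fall was 1.62-fold (log2 -0.70 ± 0.17 SE, limma adjusted p = 0.0252). The call depended on several arrays: leaving out EGFP replicate 1 or 3 raised the limma adjusted p to 0.0726 and 0.0519, and leaving out EVI1 replicate 2 or 3 raised it to 0.0835 and 0.0892. Ccl5, a chemokine of T cells and natural killer cells, read 9.34, 10.28 and 9.21 in EGFP and 9.06, 8.32 and 9.14 in EVI1. All EVI1 arrays lay under all EGFP arrays, yet the difference of -0.77 ± 0.31 did not pass (limma adjusted p = 0.144). Without EGFP replicate 2 that difference was -0.44.

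Ccr1 itself, the receptor that these ligands share on monocytes and neutrophils, read 9.27, 8.43 and 8.14 in EGFP and 7.19, 5.95 and 5.64 in EVI1. Replicate 1 was highest in each group. The fall was 5.11-fold (log2 -2.35 ± 0.42 SE, limma adjusted p = 0.00598), and it passed without each single array, at adjusted p up to 0.0331. The EVI1 mean of 6.26 lay under the olfactory line of that group (6.99), so the size of the fall is uncertain. Its close relative Ccr1l1 was at or below the olfactory line and differed by -0.0026 ± 0.15.

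Of Ccl2, Ccl7, Ccl8 and Ccl12, taken as one group of monocyte-attracting ligands, Ccl2 fell and the other 3 did not pass. Ccl2, the main ligand of Ccr2, read 9.08, 8.50 and 7.79 in EGFP and 6.96, 6.14 and 7.16 in EVI1. The EGFP arrays spread over more than 1 log2 unit, and the highest EVI1 array stayed under the lowest of them. The fall was 3.25-fold (log2 -1.70 ± 0.35 SE, limma adjusted p = 0.0119), and it passed without each single array, at adjusted p up to 0.0368. The EVI1 mean of 6.75 lay under the olfactory line. Ccl7 (-0.20 ± 0.12), Ccl12 (-0.18 ± 0.12) and Ccl8 (0.06 ± 0.12) had means at or below that line.

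Ccr2, the receptor that marks classical monocytes and their precursors, read 11.12, 10.08 and 10.63 in EGFP and 9.12, 8.09 and 7.54 in EVI1. The gap between the groups was close to 1 log2 unit, and EVI1 replicate 3 was lowest. Its 5.12-fold fall (log2 -2.36 ± 0.40 SE, limma adjusted p = 0.00476) passed without each single array, at adjusted p up to 0.0225. Among 9 measured markers of monocytes and macrophages 4 rose (Mpeg1, Cd68, Mrc1 and Ctss) and 2 fell (Csf1r and Cd14). Their array means were 9.37 to 9.87 in EGFP and 9.55 to 9.99 in EVI1, and Cd163 was at or below the olfactory line. The 9 include Cx3cr1, itself a member of the chemokine receptor family. Of 7 markers of mast cells and basophils, which also make CC chemokines, 6 fell and none rose, with array means of 10.08 to 10.51 in EGFP and 8.75 to 8.99 in EVI1; Tpsb2 was at or below the line. The part of these cells in the falls of Ccr1, Ccr2 and their ligands was not tested. Cx3cr1, the fractalkine receptor of monocytes and macrophages, read 8.75, 8.25 and 8.54 in EGFP and 8.38, 7.84 and 8.15 in EVI1. Each EVI1 array lay below the EGFP array of the same number by a similar amount (log2 -0.39 ± 0.18 SE). It did not pass (limma adjusted p = 0.192) and passed with the replicate number as a block (0.0278). Its ligand Cx3cl1 did not pass (0.34 ± 0.17).

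Several genes were high on EGFP replicate 2. Ccl22, a ligand of Ccr4 made by dendritic cells and macrophages, read 8.89, 10.48 and 8.93 in EGFP and 7.15, 8.12 and 7.95 in EVI1. EGFP replicate 2 stood 1.57 above the mean of the other EGFP arrays. The fall was 3.23-fold (log2 -1.69 ± 0.43 SE, limma adjusted p = 0.0286). It was -1.17 without EGFP replicate 2, where it still passed (0.0146), and did not pass without EVI1 replicate 1 (0.0895) or EVI1 replicate 3 (0.0836).

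Ccr7, which guides mature dendritic cells and naive T cells to lymph nodes, read 9.19, 10.37 and 9.17 in EGFP and 8.14, 8.48 and 8.45 in EVI1. EGFP replicate 2 was again highest, by 1.19. The fall was 2.33-fold (log2 -1.22 ± 0.30 SE, limma adjusted p = 0.0249). It was -0.82 without EGFP replicate 2, with a smaller adjusted p (0.00409), and did not pass without EVI1 replicate 1 (0.0817), EVI1 replicate 2 (0.0603) or EVI1 replicate 3 (0.0823). Ccl17, the other ligand of Ccr4, read 7.75, 8.95 and 7.77 in EGFP and 6.70, 7.39 and 7.42 in EVI1. The groups did not overlap, but the difference of -0.99 ± 0.33 did not pass (limma adjusted p = 0.0829); it passed with a replicate block (0.0208) and was -0.59 without EGFP replicate 2. Ccr4 itself was at or below the olfactory line (-0.09 ± 0.12). Ccl5 and the atypical receptor Ackr4 shared the high value on EGFP replicate 2, at 1.00 and 0.97 above the mean of the other EGFP arrays. These 5 genes were singled out after their values had been seen. Of 7 dendritic cell markers 3 fell (Flt3, Itgax and H2-Ab1), with array means of 7.69, 7.92 and 7.81 in EGFP and 7.22, 7.38 and 7.29 in EVI1, and Xcr1 and Cd209a were at or below the olfactory line. Flt3 is also counted among the fallen progenitor markers, and Xcr1 is itself a member of the chemokine receptor family. Of 8 markers of T and natural killer cells 6 were at or below the olfactory line, among them Cd3g, the only 1 that fell. The part of either cell type in these differences was not tested.

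**Figure D3:**
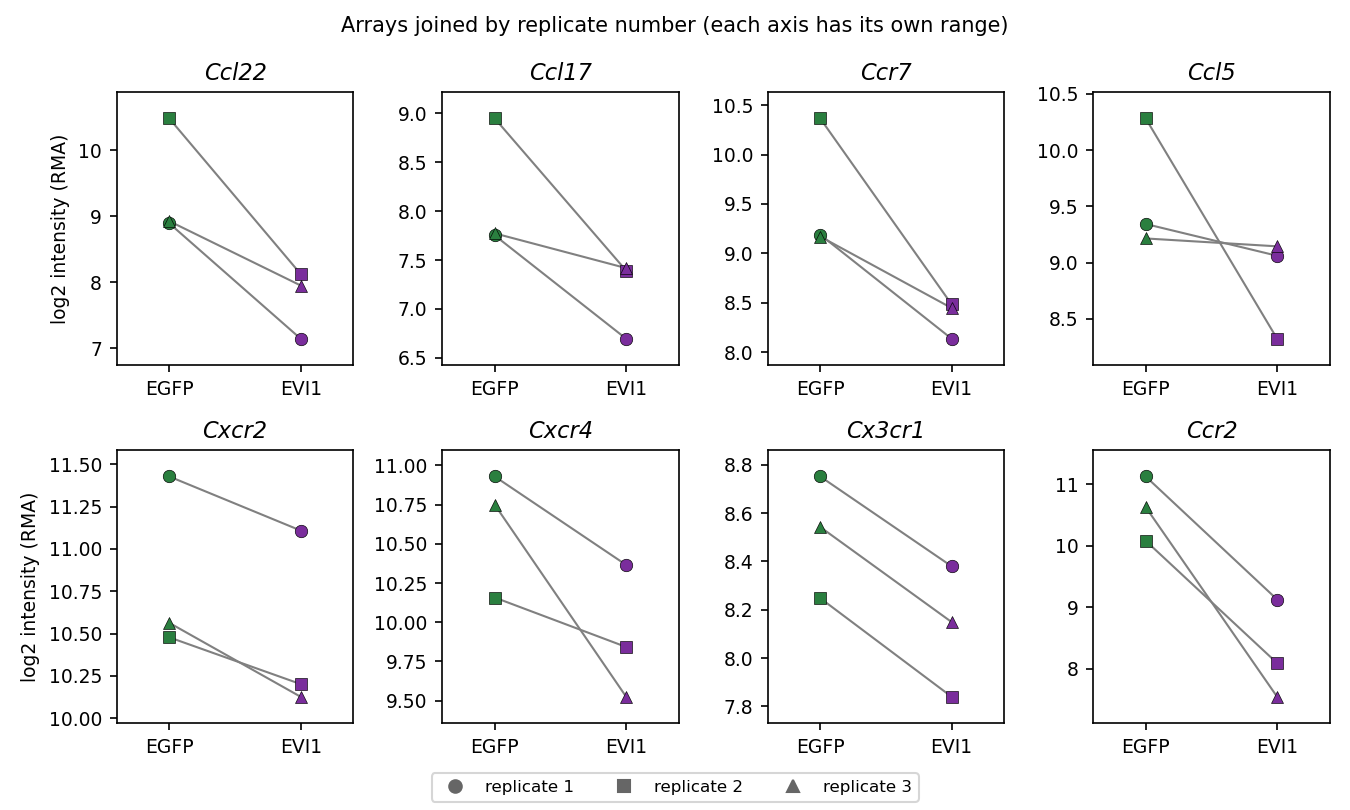
RMA log2 intensity of 8 genes with same-numbered EGFP and EVI1 arrays joined by a line; each panel has its own range. In the upper row EGFP replicate 2 stands above the other EGFP arrays, and in all 8 panels every line falls.

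The CXC ligands that rose bind Cxcr3 or Cxcr2. Promoters are shown for the 3 risen ligands, in comparison with Ccl3 and Ccr2, a fallen ligand and a fallen receptor whose means lay above the olfactory line in both groups. They are RefSeq windows of 300 bases on build GRCm38.p6, written 5′ to 3′ on the gene's strand with the transcription start after base 250. Capitals mark matches, on either strand, to 4 short motifs: an interferon-stimulated response element (GAAA, any 2 bases, GAAA), a gamma-activated site (TTCNNNGAA), an NF-kappaB site (GGG, any 3 bases, TTCC) and a GATA site (GATAAG). Cxcl9 is at chr5:92328030-92328329 (minus strand), Cxcl10 at chr5:92348840-92349139 (minus), Cxcl3 at chr5:90785851-90786150 (plus), Ccl3 at chr11:83649329-83649628 (minus) and Ccr2 at chr9:124101933-124102232 (plus).
Cxcl9: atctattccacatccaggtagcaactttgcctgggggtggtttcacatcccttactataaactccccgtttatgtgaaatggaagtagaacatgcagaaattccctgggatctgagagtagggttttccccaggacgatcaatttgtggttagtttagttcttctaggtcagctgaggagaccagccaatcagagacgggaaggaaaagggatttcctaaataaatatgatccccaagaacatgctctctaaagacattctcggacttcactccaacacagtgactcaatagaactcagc
Cxcl10: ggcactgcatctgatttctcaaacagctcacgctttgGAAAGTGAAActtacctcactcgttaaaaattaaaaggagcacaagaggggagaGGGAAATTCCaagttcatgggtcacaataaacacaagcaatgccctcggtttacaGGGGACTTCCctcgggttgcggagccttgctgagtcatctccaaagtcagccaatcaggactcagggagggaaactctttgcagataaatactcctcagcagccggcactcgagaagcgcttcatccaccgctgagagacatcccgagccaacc
Cxcl3: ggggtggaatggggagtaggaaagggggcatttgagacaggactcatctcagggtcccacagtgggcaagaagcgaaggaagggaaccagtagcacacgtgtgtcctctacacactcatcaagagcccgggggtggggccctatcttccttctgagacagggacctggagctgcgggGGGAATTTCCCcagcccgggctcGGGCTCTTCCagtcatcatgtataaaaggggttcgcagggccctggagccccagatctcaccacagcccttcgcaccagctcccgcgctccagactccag
Ccl3: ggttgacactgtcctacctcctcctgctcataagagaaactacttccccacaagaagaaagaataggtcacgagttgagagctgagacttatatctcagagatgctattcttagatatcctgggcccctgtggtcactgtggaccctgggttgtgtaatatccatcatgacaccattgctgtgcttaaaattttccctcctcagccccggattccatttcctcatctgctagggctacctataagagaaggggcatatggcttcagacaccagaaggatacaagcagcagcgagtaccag
Ccr2: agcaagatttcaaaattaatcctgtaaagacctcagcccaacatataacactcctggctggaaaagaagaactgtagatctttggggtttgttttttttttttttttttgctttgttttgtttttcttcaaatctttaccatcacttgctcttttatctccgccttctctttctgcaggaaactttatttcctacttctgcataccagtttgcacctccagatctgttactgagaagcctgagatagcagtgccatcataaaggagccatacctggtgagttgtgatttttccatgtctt
The Cxcl10 window held 1 interferon-stimulated response element (bases 38 to 47) and 2 NF-kappaB matches. Cxcl3 held 3 NF-kappaB matches, of which the ones at bases 178 to 187 and 179 to 188 overlap and lie on opposite strands. The windows of Cxcl9, Ccl3 and Ccr2 held no match to these letters. The fallen ligands Ccl6, Ccl9 and Ccl22 also had means above the olfactory line in both groups, and their windows are not shown. Ccl9 held 1 NF-kappaB match (bases 216 to 225), whereas Ccl6 and Ccl22 held no match to the 4 motifs.

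Promoters were found for 42 of the 56 genes, among them 11 of the 14 that changed; the other 3 are Ccl2, Ccl4 and Ccr7. An NF-kappaB match was present in 9 of 42 (21.4%), namely Ccl1, Ccl20, Ccl9, Ccr3, Ccr6, Cxcl1, Cxcl10, Cxcl2 and Cxcl3, beside 6.31% of 27025 genes with a promoter in the table. The interferon element was present in 3 of 42 (7.14%, against 3.99% of all genes), the gamma-activated site in 4 (9.52%, against 9.55%) and the GATA letters in 3 (7.14%, against 8.58%). A match is a description of the letters only. Among the 9 genes with an NF-kappaB match, Cxcl10 and Cxcl3 rose, Ccl9 fell and the others did not pass.

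Cxcl9 is induced by interferon gamma and attracts activated T cells through Cxcr3. It read 6.19, 6.63 and 6.65 in EGFP and 8.86, 8.24 and 9.22 in EVI1. The groups lay far apart, with EVI1 replicate 2 the lowest of its group. The rise was 4.89-fold (log2 2.29 ± 0.24 SE, limma adjusted p = 0.000612), from an EGFP mean of 6.49 that lay under the olfactory line, and it passed without each single array, at adjusted p up to 0.00419.

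Cxcl10, also a ligand of Cxcr3 and a common reporter of interferon signalling, read 8.92, 8.19 and 8.69 in EGFP and 11.18, 9.06 and 11.25 in EVI1. EVI1 replicates 1 and 3 were more than 2 log2 units above every EGFP array, whereas EVI1 replicate 2 exceeded the highest of them by little. The rise was 3.74-fold (log2 1.90 ± 0.53 SE, limma adjusted p = 0.0416). Leaving out EVI1 replicate 2 gave 2.62 (limma adjusted p = 0.000794). The call was lost when EGFP replicate 1, 2 or 3 was left out (limma adjusted p = 0.0666, 0.0780 and 0.105), when EVI1 replicate 1 or 3 was left out (0.127 and 0.164), and with trend and robust estimation (0.0515). Cxcl11, the third ligand of Cxcr3, was at or below the olfactory line (0.12 ± 0.17). Cxcr3 read 7.57, 7.26 and 7.29 in EGFP and 6.91, 7.01 and 7.53 in EVI1, and its groups overlapped (-0.22 ± 0.18, limma adjusted p = 0.519).

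Of the 5 neutrophil-attracting CXC ligands 1 rose, none fell and 4 did not pass. Cxcl3 read 7.51, 7.84 and 6.77 in EGFP and 8.32, 8.68 and 8.78 in EVI1. Its groups did not overlap, and EGFP replicate 3 was lowest. The rise was 2.34-fold (log2 1.22 ± 0.26 SE, limma adjusted p = 0.0130), and it did not pass without EVI1 replicate 3 (0.0674). Cxcl2, its close paralog, read 7.92, 7.95 and 7.07 in EGFP and 8.67, 8.06 and 9.20 in EVI1. All EVI1 arrays lay above all EGFP arrays, with EVI1 replicate 2 nearest to them. The difference of 1.00 ± 0.32 did not pass (limma adjusted p = 0.0678) but did without EVI1 replicate 2 (0.0312), without EGFP replicate 2 (0.0456) and with array weights (0.0299). Cxcl5 (0.55 ± 0.19) and Cxcl15 (0.17 ± 0.16) were at or below the olfactory line, and Cxcl1 differed by 0.22 ± 0.18. Cross-hybridisation among Cxcl1, Cxcl2 and Cxcl3 was not tested.

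Cxcr2 and Cxcr4, which act in the release and retention of marrow cells, differed less than Ccr1 and Ccr2. Cxcr2, the receptor for Cxcl1, Cxcl2 and Cxcl3 on neutrophils, read 11.43, 10.48 and 10.56 in EGFP and 11.11, 10.20 and 10.13 in EVI1. The groups overlapped because replicate 1 was high in each, and the difference of -0.34 ± 0.32 did not pass (limma adjusted p = 0.585). With a replicate block it passed narrowly (0.0495). Cxcr4, the receptor for Cxcl12, read 10.93, 10.16 and 10.75 in EGFP and 10.37, 9.84 and 9.52 in EVI1. The highest EVI1 array lay above the lowest EGFP array, and the difference of -0.70 ± 0.25 did not pass (limma adjusted p = 0.104). It passed with a replicate block (0.0351), without EGFP replicate 2 (0.0205) and without EVI1 replicate 1 (0.0426). Cxcl12 was at or below the olfactory line (-0.10 ± 0.10). Among 8 neutrophil markers 4 fell (Ngp, Mmp8, Elane and Mpo) and none rose, with array means of 10.64 to 11.41 in EGFP and 8.73 to 9.63 in EVI1, and Camp was at or below the olfactory line; their part in the values of Cxcr2 and Cxcr4 was not tested. With the block, 18 of the 56 genes passed, beside 21.9% of all genes: all 14 named as changed, and Ccl17, Cx3cr1, Cxcr2 and Cxcr4, all of them lower.

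The 2 receptors that rose were Ccr9 and Ackr1. Ccr9, which guides lymphoid progenitors to the thymus and lymphocytes to the gut, read 7.13, 6.60 and 6.99 in EGFP and 7.88, 7.47 and 7.84 in EVI1. Replicate 2 was lowest in each group and the groups did not overlap. The rise was 1.77-fold (log2 0.82 ± 0.17 SE, limma adjusted p = 0.0121), from an EGFP mean of 6.91 under the olfactory line of that group (6.95), and it did not pass without EVI1 replicate 3 (0.0604). Its ligand Ccl25 differed by 0.10 ± 0.19 on the probe set used and by 0.17 on the other.

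Ackr1, a receptor of red cells and venules that binds many inflammatory chemokines, read 6.95, 7.65 and 7.17 in EGFP and 7.71, 8.09 and 8.11 in EVI1. The groups were separated by a narrow margin. The rise was 1.64-fold (log2 0.72 ± 0.19 SE, limma adjusted p = 0.0359). Leaving out EGFP replicate 1 or 3, or EVI1 replicate 2 or 3, ended the call, at limma adjusted p up to 0.139. Of 6 endothelial markers 3 rose (Cdh5, Kdr and Tek) and none fell. Array means of the 6 were 6.95 to 7.196 in EGFP and 8.09 to 8.41 in EVI1. Pecam1 was lower on every EVI1 array than on any EGFP array. Its difference of -0.44 ± 0.14 did not pass (limma adjusted p = 0.0605) but did with a replicate block (0.0251). Emcn and Plvap were at or below the olfactory line. The part of endothelial markers in the rise of Ackr1 was not tested. Of the other atypical receptors, Ackr2, which removes inflammatory CC chemokines, differed by 0.16 ± 0.11, and Ackr4, which removes ligands of Ccr7 and Ccr9, by 0.14 ± 0.25. Without EGFP replicate 2, its highest array, Ackr4 differed by 0.46 and passed (limma adjusted p = 0.0383). Ackr3 was at or below the olfactory line.

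Among 12 measured ligands of homing and of epithelia none passed, with log2 differences from -0.22 to 0.34. Ccl19, a ligand of Ccr7, read 9.53, 9.56 and 10.38 in EGFP and 9.09, 9.59 and 10.13 in EVI1, with overlapping groups (-0.22 ± 0.30). Its 4 probe sets disagreed, at differences of -0.69, -0.40, -0.22 and 0.24, and the groups overlapped on each. Cxcl16 (-0.02 ± 0.19) and its receptor Cxcr6 (0.02 ± 0.21) differed by less than their standard errors, as did Xcl1 (-0.01 ± 0.12), Ccr10 (0.01 ± 0.13) and Ccl11 (-0.06 ± 0.12). Cxcl17 differed by -0.08 ± 0.11 and Ccl24, a ligand of the eosinophil receptor Ccr3, by 0.34 ± 0.21; Ccr3 was at or below the olfactory line. Over the whole family the groups did not overlap for 18 of 56 genes, beside 32.6% of all genes; these were the 14 changed genes and Ccl5, Ccl17, Cxcl2 and Cxcl5.

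Chemokine genes lie in clusters that arose by duplication, and the changed genes could be placed among their neighbours from the RefSeq table of GRCm38.p6. On chromosome 11 the neighbouring genes Ccl5, Ccl9, Ccl6, Ccl3 and Ccl4 all had lower values in EVI1, and 4 of the 5 fell. In the second group on that chromosome, Ccl2, Ccl7, Ccl11, Ccl12, Ccl8 and Ccl1, only Ccl2 fell. On chromosome 5 the 7 measured Cxcl genes from Cxcl5 to Cxcl10 all had higher means in EVI1, and 3 of them rose. Cxcl5 and Cxcl15 were at or below the olfactory line, and the groups of Cxcl1 and Cxcl15 overlapped. Pf4, which lies among these Cxcl genes and is outside the symbol rule, fell. On chromosome 9 the receptor row Ccr9, Cxcr6, Xcr1, Ccr1, Ccr1l1, Ccr3 and Ccr2 went both ways, with Ccr9 up, Ccr1 and Ccr2 down, and 4 not passing. On chromosome 8, Ccl22 fell, and neither Cx3cl1 nor Ccl17, which follow it, passed.

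**Figure D4:**
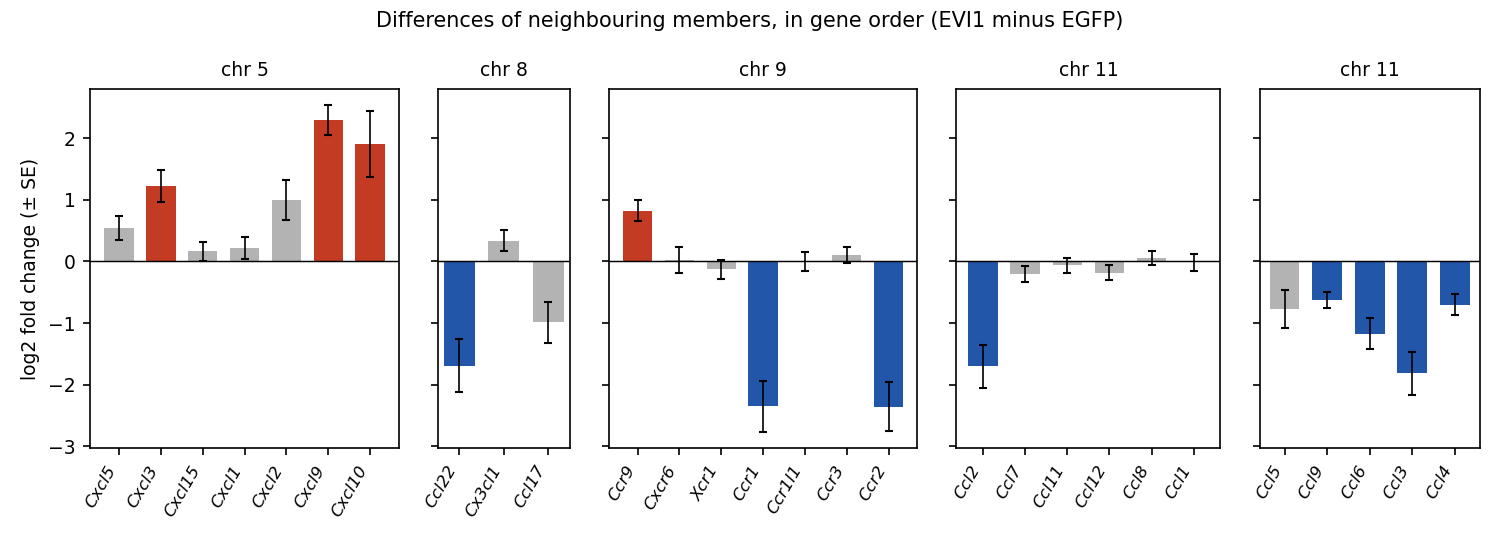
Log2 fold change (EVI1 minus EGFP) with its standard error for members that neighbour each other on chromosomes 5, 8, 9 and 11, in gene order and not to genomic scale; red rose, blue fell, grey did not pass. Values of the Cxcl5 to Cxcl10 row on chromosome 5 are above 0, those of the Ccl5 to Ccl4 row below 0, and those on chromosome 9 are mixed.

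Genes that act below the receptors were listed from general knowledge, from G protein subunits to regulators of migration. Of 50 measured, 5 rose, 5 fell and 40 did not pass (20% changed, beside 18.2% of all genes), with a median of 0.08 beside 0.01 for all genes. Rgs1, which shuts off chemokine receptor signals, fell by 1.61 ± 0.27 on the log2 scale, and Itgb2, the beta chain of the leukocyte integrins that chemokines activate, fell by 1.59 ± 0.20. Tiam1, an activator of Rac, fell by 0.84 ± 0.13 and Pik3cg, the lipid kinase driven by G proteins, fell by 0.57 ± 0.14. The phospholipase Plcb3 rose by 0.60 ± 0.11. Gng11, a G protein subunit, passed with a difference of 0.85 ± 0.14, but its means of 6.09 in EGFP and 6.94 in EVI1 both lay under the olfactory line, so the size of its rise is uncertain. These counts moved with single arrays, to between 2 and 5 rises and between 3 and 7 falls when 1 array was left out, and 3 genes rose after a further quantile normalisation.

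Of 16 related chemoattractant genes outside the symbol rule 1 rose, 3 fell and 12 did not pass (25% changed, beside 18.2% of all genes), with a median of -0.04. C5ar1, the complement C5a receptor of neutrophils and monocytes, fell by 1.84 ± 0.19 on the log2 scale, and Dpp4, a peptidase that trims chemokines including Cxcl10 and Cxcl12, fell by 1.52 ± 0.19; the EVI1 mean of Dpp4 (6.56) lay under the olfactory line. The platelet chemokines encoded between Cxcl5 and Cxcl3 went apart, as Pf4 fell by 1.41 ± 0.22 and Ppbp rose by 1.37 ± 0.21. Cd74, a receptor for the cytokine Mif, differed by 0.78 ± 0.25 (limma adjusted p = 0.0636) and passed with a replicate block (0.00299), and Cklf, a chemokine-like factor, differed by -0.52 ± 0.22 (0.150, and 0.0201 with the block).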

How the data were processed

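The deposited files hold a log2 intensity for each probe set on each array, which the authors made with RMA (background correction, quantile normalisation and summary per probe set), per the submitters' processing notes; its version is not given in the sources used here. RMA brings arrays to a common distribution, so a change in total RNA per cell would not appear. Precision is limited by the number of arrays, which have no read depth. Of 34760 probe sets 21640 carried 1 symbol, 1321 several and 11799 none here. Each of 19937 genes was read by its brightest probe set (mean over 6 arrays). EVI1 and EGFP arrays, 3 each, were compared with limma 3.58.1 in R 4.3.3 (lmFit, eBayes), tested on simulated data, with Benjamini-Hochberg adjustment over all genes. Log2 fold changes are EVI1 minus EGFP. Deviations of same-numbered arrays from their group means correlated at 0.491, 0.269 and 0.197 across genes, so a replicate block was fitted as an alternative. Other alternatives were a further quantile normalisation, the mean of all probe sets, removal of genes whose mean level was under the median or under the 25th percentile, trend and robust estimation, array weights, and leaving out each array. The genes named are those that passed, those above the olfactory line, their ligands and receptors, and up to 6 per list with the smallest p. The members, lists and motifs were chosen with earlier results of these data known, so counts over them are descriptions.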

Additional observations from a re-analysis of the deposited data

Results flagged for a closer look

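Probe sets that carry several gene symbols were outside the comparisons. Of 3 such probe sets with chemokine symbols, 1 (probe set 10512315, with 5 symbols) was higher on every EVI1 array than on any EGFP array. It read 8.02, 7.72 and 7.84 in EGFP and 8.24, 8.41 and 8.34 in EVI1. The difference of 0.47 on the log2 scale was not tested, and it cannot be given to a single gene.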

How the results depend on the processing

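The 14 changed genes kept their direction under all 13 alternatives that measured them, and all 14 passed with a replicate block. Of 247 summary values under the alternatives, 209 stayed within their limits and 38 moved. With a replicate block 6 receptors fell; related chemoattractants that rose were 2 with the block, with array weights and without genes under the median of mean level. With array weights 5 ligands rose, all of them CXC ligands. Without genes under the median of mean level, which removes dim members by construction, 1 receptor rose, and the median was -0.37 over members, -0.22 for ligands, -0.39 for receptors, -0.77 for CC ligands and 1.11 for CXC ligands; without genes under the 25th percentile it was -0.10 for receptors and -0.42 for CC ligands. A further quantile normalisation left 3 risen signalling genes. Leaving out 1 array gave 1 to 7 risen members in all, 4 to 10 fallen, 1 to 4 risen ligands, 2 to 6 fallen ligands, 0 to 3 risen receptors, 2 to 6 fallen CC ligands, 1 to 4 risen CXC ligands, 2 to 5 risen and 3 to 7 fallen signalling genes, 1 to 2 risen related genes, and a ligand median from -0.086 to 0.0041. Ackr4 ranged from -0.033 to 0.46, Ccl11 from -0.14 to 0.0074, Ccl19 from -0.48 to 0.057, Ccl25 from -0.093 to 0.23, Ccr10 from -0.072 to 0.12, Cxcl16 from -0.21 to 0.17, Cxcr6 from -0.16 to 0.20 and Xcl1 from -0.074 to 0.083. Ccr10 was -0.075 with array weights, and Cxcl16 was 0.15 there and 0.0061 after quantile normalisation. None of these sign changes concerned a changed gene; the causes were not tested.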
